A study of Gallus gallus with 14 samples.

Results

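The locus described here lies opposite to CLDN1 on chicken chromosome 9 and carries 3 unknown long non-coding RNAs (lncRNAs), named MSTRG.23167.2, MSTRG.23167.3 and MSTRG.23167.4. The members were taken as every lncRNA of the MSTRG.23167 assembly plus any other lncRNA overlapping MSTRG.23167.4 on the chromosome, which added 0. They are 3 of 9977 lncRNAs in the table and 3 of the 568 unknown lncRNAs that lie antisense to an exon of a gene. MSTRG.23167.4 was chosen by its measured levels, since the study had listed it from its own comparison of the hens described here. Its values between the groups, those of MSTRG.23167.3 and all shares of the locus are therefore given as a description, with no test, while MSTRG.23167.2 and the sum of the locus were tested. The sum includes the fragments of MSTRG.23167.4, so its tests between the groups and between the prefixes are not free of that choice. MSTRG.23167.2 shares 891 exon bases with MSTRG.23167.4, and how shared fragments were assigned is not given. The tests of MSTRG.23167.2 may therefore depend on that choice too, through its level in the hen that holds MSTRG.23167.4.

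CLDN1 encodes claudin-1, a membrane protein of the tight junction, the seal between neighbouring epithelial cells that limits what passes between them. An antisense lncRNA is transcribed from the strand opposite to a gene, and such transcripts are known in other systems to act on the gene they overlap or to have no effect on it. The uterovaginal junction (UVJ) of the hen oviduct holds the sperm storage tubules, pockets of epithelium in which sperm remain alive after mating or insemination. The table lists lncRNAs alone, so neither CLDN1 mRNA nor a marker of the UVJ epithelium could be checked in it.

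The study sequenced total RNA of the UVJ of 14 egg-laying hens, 7 long-DF and 7 short-DF, each hen as a library of its own. All hens were kept alike and artificially inseminated, and DF stands for the duration of fertility that followed. The long-DF hens laid fertile eggs for many days or in a high number after a single insemination, and the short-DF hens for few days or in a low number. The study asked which lncRNAs differ between these groups. Neither the labels nor the methods give a genetic difference between the groups, and the labels hold no age at sampling. The hen numbers begin with JH or JF, with 4 JH and 3 JF hens on each side. The sources used here do not give the meaning of the prefixes. Between 213304 and 281892 fragments per hen fell on lncRNAs, which was 2.99% to 3.72% of the library totals of 5900804 to 8662126 fragments behind the FPKM values. These totals were computed from count, length and FPKM. They lie well below the mean numbers of raw reads that the study reports, so they are not the sequencing depth. The totals were lower in JH than in JF hens (means of 6665193 and 7619511 fragments, exact permutation test, p = 0.0113). For long- against short-DF no difference was detected (means of 7332871 and 6815501 fragments, exact permutation test, p = 0.211).

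The 3 transcripts were nearly the same piece of sequence with a different short intron. In the deposited annotation on Galgal4 all 3 were on the minus strand, had 2 exons, and were classed as overlapping an exon of the CLDN1 transcript ENSGALT00000044685 on the other strand. MSTRG.23167.2 ran from 13427008 to 13428088 on chromosome 9, with a length of 1005 nt. Its upstream exon of 240 nt (13427849 to 13428088) was joined to an exon of 765 nt (13427008 to 13427772) over an intron of 76 nt. MSTRG.23167.3 and MSTRG.23167.4 shared both ends, 13427009 and 13428094. They differed in the intron alone, which was 78 nt in MSTRG.23167.3 (13427736 to 13427813) and 113 nt in MSTRG.23167.4 (13427623 to 13427735). In the direction of transcription, the intron of MSTRG.23167.4 began at the base right after that of MSTRG.23167.3, so that both lay end to end without an overlap. The exons of MSTRG.23167.4 were thus 359 nt (13427736 to 13428094) and 614 nt (13427009 to 13427622), and its length was 973 nt against 1008 nt for MSTRG.23167.3.

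**Figure D1:**
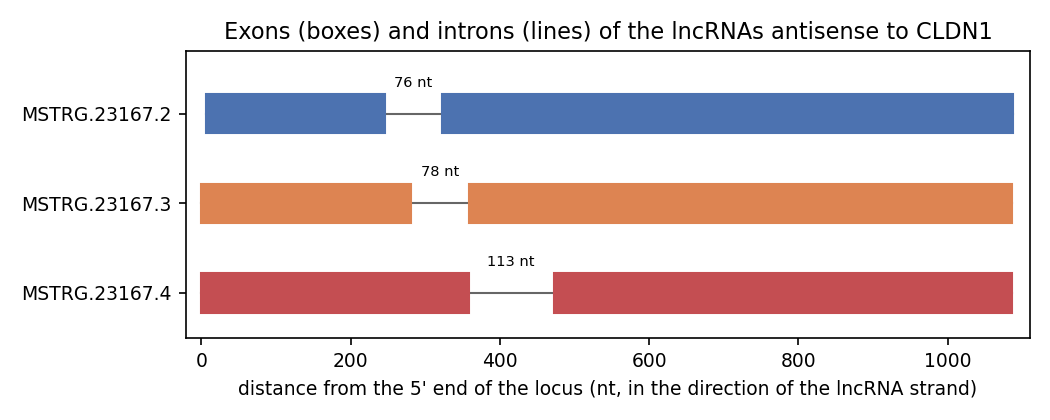
Exon and intron structure of the 3 lncRNAs antisense to CLDN1, with boxes for exons, lines for introns, and the distance in nt from the 5′ end of the locus on the x axis. The introns of 76, 78 and 113 nt sit at different places inside otherwise shared exons.

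Of the 1087 bases covered by any exon of the locus, 854 bases (78.6%) were in an exon of all 3 transcripts. MSTRG.23167.4 held 41 bases that were in no exon of the others, MSTRG.23167.2 held 1 such base and MSTRG.23167.3 held 0. A fragment inside the shared bases does not tell the transcripts apart by itself, and how such fragments were assigned is not given in the sources used here. The shares given below, and the level of MSTRG.23167.2 where another member was counted, therefore rest on that assignment. Whether the counting used strand is not given either, so reads from CLDN1 and from its antisense partner cannot be told apart in these values.

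Introns as short as these were a minority among the unknown lncRNAs. The median intron was 1782 nt in the antisense class and 1121 nt over all unknown lncRNAs. No intron over 113 nt was found in 36 of 568 antisense lncRNAs (6.34%), the 3 members included, and in 233 of 2576 unknown lncRNAs (9.05%).

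MSTRG.23167.2 was abundant in the UVJ of every hen by the deposited values, in which reads of CLDN1 cannot be told apart. The same limit holds for the other antisense lncRNAs and their genes. Its mean was 298 ± 39.0 FPKM (SD, n = 14), where FPKM is the number of fragments scaled by transcript length and by library total. This placed it 9th of 9977 lncRNAs and 7th of 2576 unknown lncRNAs by mean FPKM. Within single hens its place by FPKM was between the 6th and the 13th. Among the 568 antisense lncRNAs it was the highest, where the median was 1.19 FPKM. The next were MSTRG.13989.2, opposite to PTRF, a gene for a coat protein of caveolae, at 239 ± 60.2 FPKM (SD, n = 14), and MSTRG.20665.1, opposite to the smooth muscle actin gene ACTG2, at 239 ± 85.6 FPKM (SD, n = 14).

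The level of MSTRG.23167.2 in the long-DF hens was 262.8 FPKM in JH14, 338.7 in JH25, 254.3 in JH95 and 366.9 in JH104. It was 237.4 FPKM in JF25, 281.4 in JF61 and 266.0 in JF64, with a group median of 266.0 FPKM. JH25 and JH104 were the high hens of this group, and the other 5 lay below all short-DF hens. In the short-DF hens it was 292.2 FPKM in JH49, 303.8 in JH68, 310.2 in JH109 and 285.9 in JH130, and 294.3 in JF21, 317.9 in JF40 and 365.1 in JF56. The short-DF hens lay close together except JF56, and all of them fell inside the range of the long-DF hens. The highest hen was 1.55-fold above the lowest.

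These levels rested on 1640 to 2600 fragments per hen, so that counting error alone was 1.96% to 2.47% of the value. The spread between hens was larger, with a coefficient of variation (CV, the SD as a percentage of the mean) of 13.1%. In the order of the 14 hens, neighbouring values were 1.83 to 26.4 FPKM apart. Each step was within the SD over hens, as steps between so many ordered values mostly are, so this does not test for a break. Of the 35 lncRNAs with a mean of at least 100 FPKM, 6 had a lower CV than MSTRG.23167.2, and the median CV of the 35 was 22.1%.

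MSTRG.23167.4 was counted in a single hen. The long-DF hen JF64 had 626 fragments on it, a level of 86.3 FPKM, and the other 13 hens had 0. In JF64 this was the 45th highest lncRNA by FPKM. MSTRG.23167.3 had the same pattern, with 111 fragments or 14.8 FPKM in JF64 and 0 fragments in each other hen. The ratio of MSTRG.23167.4 to MSTRG.23167.3 in that hen was 5.64 by fragments. Group means of both transcripts therefore stand for JF64 alone, and without this hen both groups are at 0. The study named MSTRG.23167.4 among the lncRNAs it called downregulated in long-DF hens. In the deposited counts all its fragments were in a long-DF hen, which is the opposite direction. The reason for this difference was not tested.

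**Figure D2:**
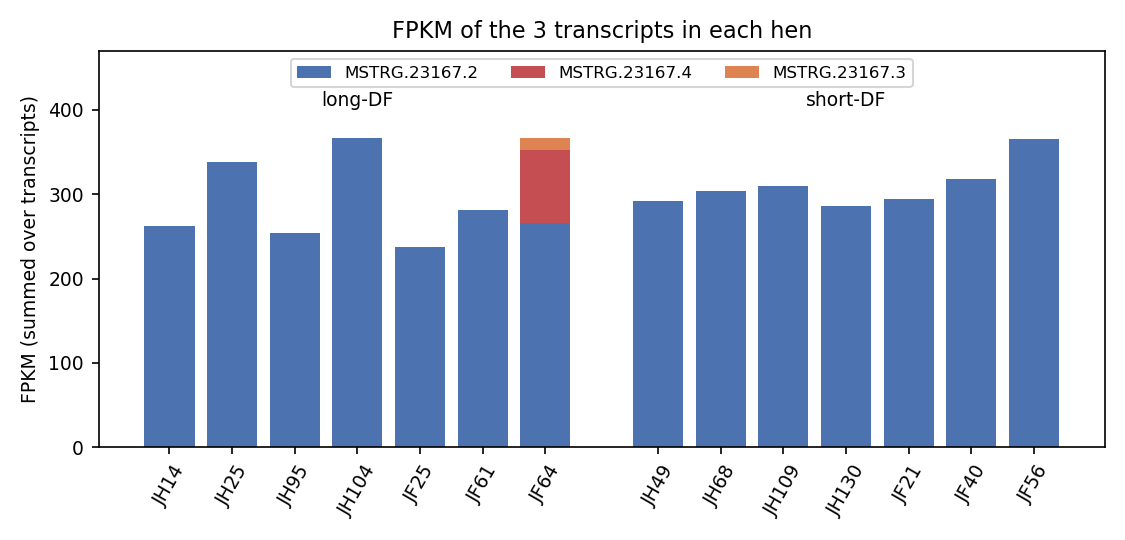
FPKM of each transcript in each hen as stacked bars, with the 7 long-DF hens on the left and the 7 short-DF hens on the right. MSTRG.23167.2 makes up the whole bar in 13 hens, and JF64 carries 86.3 FPKM of MSTRG.23167.4 and 14.8 FPKM of MSTRG.23167.3 above 266.0 FPKM of MSTRG.23167.2.

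Of the 2729 fragments of the locus in JF64, MSTRG.23167.2 took 73.0% (exact 95% binomial interval 71.3% to 74.7%), MSTRG.23167.4 took 22.9% (21.4% to 24.6%) and MSTRG.23167.3 took 4.07% (3.36% to 4.88%). By FPKM the share of MSTRG.23167.4 was 23.5%. In the other 13 hens MSTRG.23167.2 took 100% of the locus. Within a hen, 0 fragments allow a share of MSTRG.23167.4 of up to 0.115% to 0.183%, taking 3 fragments as the limit. Over the 13 hens together, 0 of 27663 fragments allow up to 0.0108%. The intervals for JF64 and these limits cover counting error only, since PCR copies of a fragment are counted like separate molecules. They also treat every fragment of the locus as able to tell the transcripts apart, although 854 of 1087 exon bases were shared by all 3 transcripts. The intervals and the limits are thus too tight, by an amount that depends on the unknown assignment. The pooled limit takes no account of differences between hens.

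The sum of the locus in JF64 was near the top of the hens but not apart from them. Summed over the 3 transcripts it was 367.1 FPKM in JF64, beside 366.9 FPKM in JH104, which had MSTRG.23167.2 alone. As counts scaled to a common library total (CPM), JF64 had 366.2 CPM, the third highest value after 368.7 CPM in JH104 and 366.9 CPM in JF56. The lowest was 238.6 CPM in JF25. For MSTRG.23167.2 alone, JF64 was the 11th highest of 14 hens. The locus held 1.22% of the lncRNA fragments in JF64, the highest share, against 0.737% in JH14, the lowest.

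Between the groups, no difference in MSTRG.23167.2 was detected beyond the spread between hens. Long-DF hens had 287 ± 47.7 FPKM on average (SD, n = 7) and short-DF hens 310 ± 26.7 FPKM (SD, n = 7). In edgeR's quasi-likelihood test over 6887 lncRNAs the log2 fold change of long- against short-DF was -0.08 (standard error 0.13, 95% interval -0.35 to 0.20, Benjamini-Hochberg adjusted p = 0.995). The interval corresponds to a level in long-DF hens between 0.784 and 1.15 times that in short-DF hens. A lncRNA was called where the adjusted p did not exceed 0.05, the p did not exceed 0.01 and the log2 fold change was 2 or more in size, and the share called in this comparison was 0% (0 of 6887). In edgeR 2.12% had an unadjusted p under 0.05, while DESeq2 called 2 lncRNAs and limma 0, neither tool calling MSTRG.23167.2.

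For the sum of the locus the result was alike. The mean was 302 ± 54.8 CPM (SD, n = 7) in the long-DF group and 311 ± 26.8 CPM (SD, n = 7) in the short-DF group. The log2 fold change in edgeR was 0.01 (standard error 0.14, 95% interval -0.29 to 0.31, adjusted p = 0.995 over 5262 loci). The sign of so small a value changed with the scaling and with the hens included. On log2 CPM the difference was -0.06 (exact permutation test, p = 0.591), and -0.11 without JF64 (exact permutation test, p = 0.318). In edgeR it was -0.07 without JF64 (adjusted p = 0.999). Of the loci, 0% (0 of 5262) were called by edgeR, with 2.3% at an unadjusted p under 0.05, and 2 by DESeq2 and 0 by limma.

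Within the JH hens the groups overlapped widely. MSTRG.23167.2 was at 306 ± 55.7 FPKM in the 4 long-DF and 298 ± 11.01 FPKM in the 4 short-DF JH hens (SD, n = 4 per group). The log2 fold change was 0.07 (95% interval -0.35 to 0.50, adjusted p = 0.993 in edgeR), where 0.0145% of lncRNAs were called. The 4 long-DF JH hens took both ends of the range, with 2 hens above and 2 hens below all 4 short-DF JH hens.

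Within the JF hens all 3 long-DF hens were below all 3 short-DF hens for MSTRG.23167.2. The means were 262 ± 22.3 and 326 ± 36.1 FPKM (SD, n = 3 per group). The log2 fold change was -0.22 (95% interval -0.53 to 0.10, adjusted p = 0.993 in edgeR), where 0.0581% of lncRNAs were called. On log2(FPKM + 0.1) the difference was -0.31 (exact permutation test, p = 0.1, the smallest that 3 against 3 hens can give). Long-DF below short-DF without overlap was found for 8.68% of the 6887 lncRNAs in these hens, and without overlap in either direction for 11.4%.

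The separation in the JF hens was not there in the sum of the locus. This change rests on JF64 alone, the hen that holds the transcript chosen by its levels. With MSTRG.23167.3 and MSTRG.23167.4 included, JF64 was at 366.2 CPM in place of 267.3 CPM and came to lie above JF21 and JF40. The log2 difference of the sum between the groups was then -0.16 (exact permutation test, p = 0.4), and -0.05 in edgeR (95% interval -0.47 to 0.37, adjusted p = 0.993), where 0.019% of loci were called. A test of whether the effect of the group differed between the prefixes gave a log2 value of 0.27 for MSTRG.23167.2 (standard error 0.26, unadjusted p = 0.310 in edgeR) and 0.11 for the sum (standard error 0.28, unadjusted p = 0.702 in edgeR), and neither passed the adjustment. Over all lncRNAs this test called 0% in edgeR, with 4.47% at an unadjusted p under 0.05, and DESeq2 and limma each called 4, none of them MSTRG.23167.2.

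**Figure D3:**
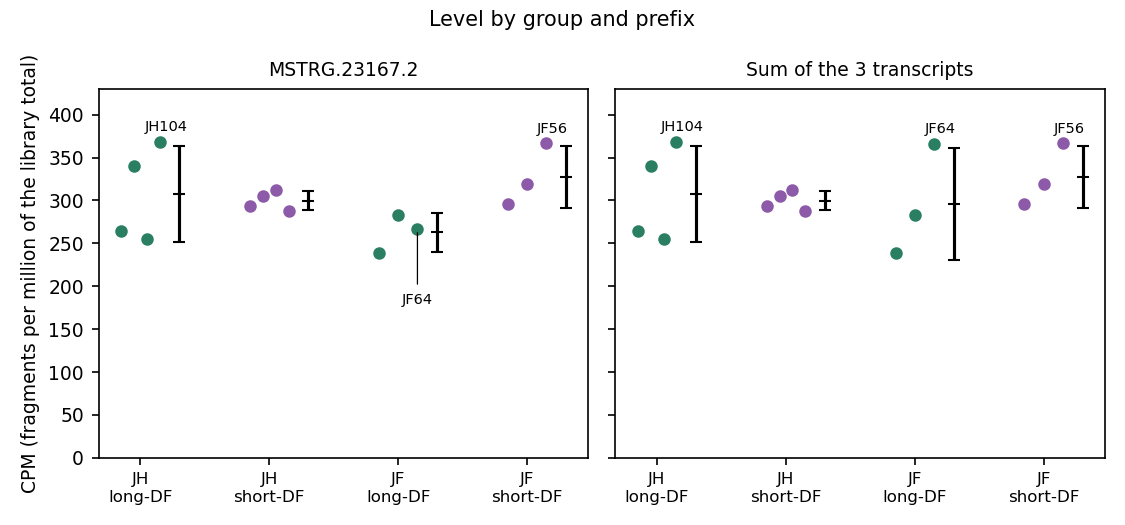
Level in CPM (y axis, counts scaled to the library total) of MSTRG.23167.2 (left) and for the sum of the 3 transcripts (right), by prefix and group, with a point per hen and the mean ± SD beside them (n = 4 per group in JH, 3 in JF). The 3 long-DF JF hens lie below the 3 short-DF JF hens on the left, while JF64 moves to 366.2 CPM on the right.

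JH and JF hens did not differ detectably at the locus. MSTRG.23167.2 was at 302 ± 37.4 FPKM in JH hens (SD, n = 8) and 294 ± 44.2 FPKM in JF hens (SD, n = 6), and the ranges overlapped over most of their length. The log2 fold change of JH against JF, with the group as a covariate, was -0.06 (standard error 0.13, 95% interval -0.34 to 0.22, adjusted p = 0.893 in edgeR). For the sum it was -0.12 (standard error 0.14, 95% interval -0.41 to 0.17, adjusted p = 0.705 in edgeR). The same comparison called 2.76% of lncRNAs and 2.81% of loci. The FPKM means of MSTRG.23167.2 put JH hens higher and the fit on lncRNA fragments put them lower. The share of the library total on lncRNAs was 3.06% to 3.72% in JH and 2.99% to 3.27% in JF hens.

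Of the 9977 lncRNAs, 15 had at least 50 fragments in 1 hen and 0 in the other 13, a number that depends on these cuts. MSTRG.23167.4 was the second among them by fragments, after NONGGAT007916.2 with 891 fragments in the short-DF hen JH109. Of the 15, 10 overlapped a lncRNA that itself had fragments in all 14 hens, as MSTRG.23167.3 and MSTRG.23167.4 did. Their share of the locus in the hen that had them was between 4.07% and 61.4%, with a median of 27.8%. For 9 of these 10 the sum of the locus in that hen lay within the range of the other hens. The 10 lie in 9 loci, since MSTRG.23167.3 and MSTRG.23167.4 share theirs. At any locus most hens lie within the range of the others, so this is not a trait of these transcripts. How many of all 9977 lncRNAs overlap a lncRNA found in every hen was not counted. NONGGAT007813.2 and MSTRG.23453.9 are not among the 10, though their locus sums were above 0 in every hen. NONGGAT007813.2 took 100% of its locus in JH95, where the sum, 30.0 CPM, was above the other hens (up to 27.3 CPM). MSTRG.23453.9 took 20.2% in JH25, with a sum of 42.4 CPM inside the range of the others. The library of JF64 held 5 of the 15, the most of any hen, and all 5 were among the 10. The other hens held between 0 and 2, and 10 hens held any. Leaving out MSTRG.23167.3 and MSTRG.23167.4 themselves, JF64 held 3 and JH95 held 2. With up to 3 fragments allowed in the other hens, JF64 held 6, members included, and JH95 and JF25 held 4 each. JF64 had the 5th largest library total behind the FPKM and the 8th largest number of lncRNA fragments of 14. Whether depth bears on these counts was not tested.

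**Figure D4:**
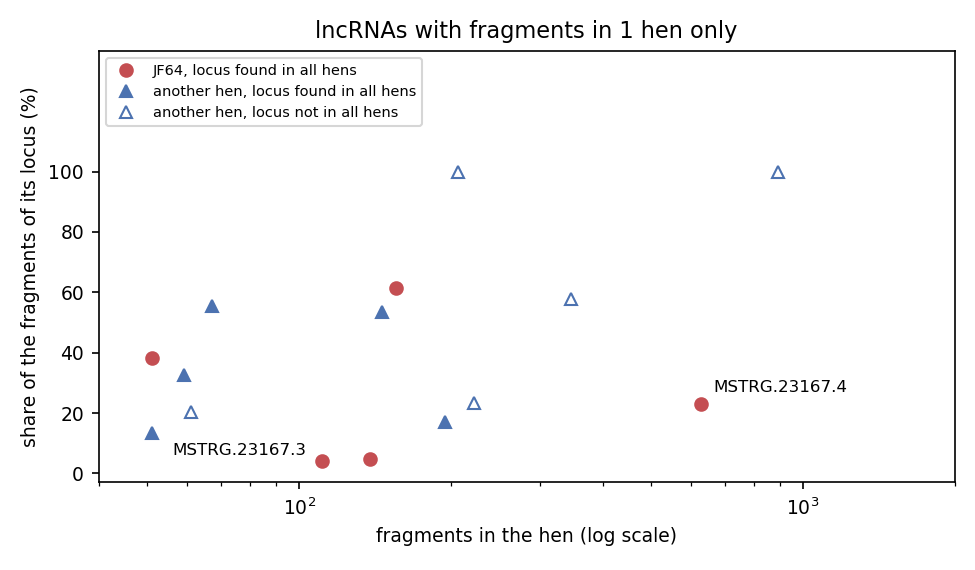
The 15 lncRNAs with at least 50 fragments in 1 hen and 0 in the other 13, by the fragments in that hen (x axis, log scale) and the share of the fragments of its locus in that hen (y axis, percent). Circles are those of JF64 and triangles those of other hens. Open symbols (locus not in all hens in the legend) overlap no single lncRNA with fragments in every hen. MSTRG.23167.4 has the most fragments among the filled symbols.

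To look for patterns like that of MSTRG.23167.4, lncRNAs with more than 3 fragments in JF64 and 3 or fewer in each other hen were listed. There were 46 outside the locus, 27 of them known lncRNAs, with 4 to 156 fragments in JF64. Known lncRNAs were the majority at large too, since 2576 of all 9977 were unknown. The number that the same rule finds for other hens is not given here, so the 46 do not set JF64 apart. From the 10th by fragments on, the 46 had 9 or fewer in JF64 and up to 3 in another hen. Those are a weak likeness to MSTRG.23167.4, with its 626 fragments against 0. The 3 with the most fragments were MSTRG.23965.4, an intergenic lncRNA on an unplaced sequence, with 156 fragments (26.5 FPKM), MSTRG.13989.3 with 138 fragments (13.2 FPKM), and MSTRG.10329.16, an intergenic lncRNA on chromosome 2, with 51 fragments (1.38 FPKM) and up to 2 in another hen. MSTRG.24711.3, an intergenic lncRNA on an unplaced sequence, tied with the last at 51 fragments (9.51 FPKM) and had 0 in each other hen. MSTRG.13989.3 lies opposite to PTRF at the locus of MSTRG.13989.2, the second most abundant antisense lncRNA, and took 4.67% of the fragments of that locus in JF64.

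The lncRNAs most like MSTRG.23167.2 over the 14 hens were far less abundant. The highest Pearson correlations on log2(FPKM + 0.1) among 6886 lncRNAs were 0.83 with NONGGAT008960.2 on chromosome 8 (0.719 FPKM on average), 0.82 with NONGGAT003628.2 on chromosome 2 (10.7 FPKM) and 0.80 with MSTRG.2242.1, an intergenic lncRNA on chromosome 1 (7.77 FPKM). These are the top of a large number of correlations over 14 hens whose values share a library total, and their median was 0.00.

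Around the locus, 14 other lncRNAs lay within 500 kb, 12 on the side of lower coordinates and 2 on the side of higher ones. In the current RefSeq annotation (GRCg7b), from which names and order alone were used, CLDN1 lies between CLDN16, another claudin gene, and P3H2, a prolyl hydroxylase gene that the deposited annotation calls LEPREL1. The mean levels of the 14 were between 0.129 and 22.6 FPKM, so that MSTRG.23167.2 was 13.2 times the highest of them, MSTRG.23181.5, which lies opposite to GMNC, a gene for a regulator of multiciliated cells. The nearest on the lower side were NONGGAT016527.1 at a distance of 27904 bases, with a mean of 0.173 FPKM, and MSTRG.23181.4 and MSTRG.23181.5, both at 114932 bases. The nearest on the higher side were MSTRG.23171.1 at 84803 bases, opposite to LEPREL1, with a mean of 1.94 FPKM, and MSTRG.23172.1 at 88264 bases, with a mean of 1.505 FPKM.

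**Figure D5:**
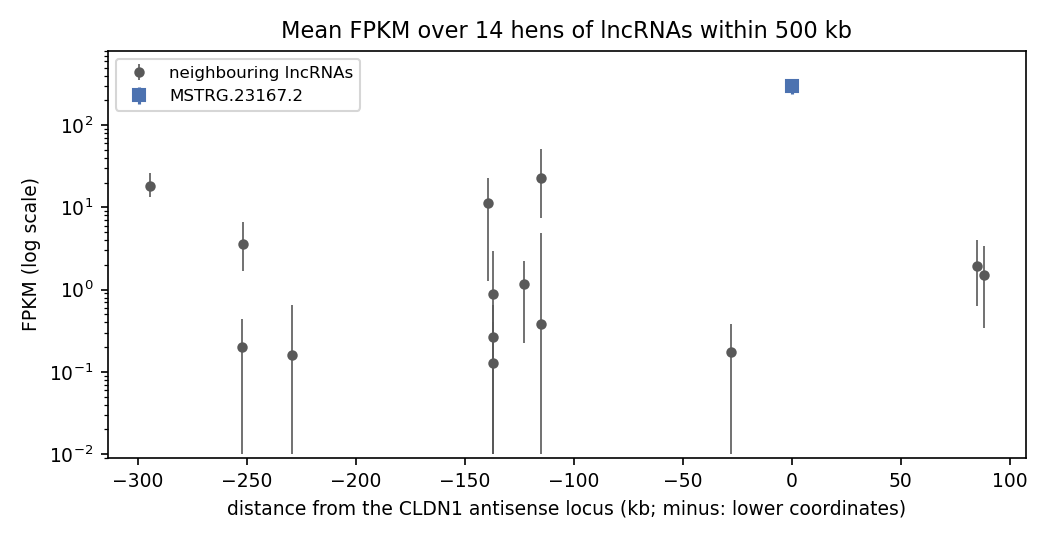
Mean FPKM over 14 hens (log scale) of the lncRNAs within 500 kb against the distance in kb from the CLDN1 antisense locus, with lines from the lowest to the highest hen. Lines that reach the lower edge include hens at 0 FPKM. MSTRG.23167.2 at 298 FPKM lies above all 14 neighbours, which reach 22.6 FPKM.

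Some neighbours differed between the prefixes. Of the 12 neighbours that passed the FPKM filter, 3 had an adjusted p of at most 0.05 for JH against JF in edgeR, with no minimum on the fold change, and 6.93% of all lncRNAs tested had it. MSTRG.23172.1 was higher in JH hens by 1.22 on the log2 scale (adjusted p = 0.0374 in edgeR), at 2.03 ± 0.752 FPKM in JH (SD, n = 8) and 0.810 ± 0.278 FPKM in JF hens (SD, n = 6). MSTRG.23181.7 was higher by 1.17 (adjusted p = 0.0441 in edgeR), and MSTRG.23161.4 was lower in JH hens, at -0.97 on that scale (adjusted p = 0.0249 in edgeR). MSTRG.23171.1, at 2.50 ± 0.743 and 1.19 ± 0.509 FPKM in the same hens, did not pass (adjusted p = 0.0735 in edgeR), nor did MSTRG.23181.5, at 28.8 ± 10.3 and 14.5 ± 6.49 FPKM (adjusted p = 0.0807 in edgeR). DESeq2 and limma each passed 4 of the 12 in this comparison. Over all 6887 lncRNAs DESeq2 passed 527 and limma 552. The fragments per hen were 3 to 24 for MSTRG.23172.1, 9 to 39 for MSTRG.23161.4 and 9 to 154 for MSTRG.23181.7. Between long- and short-DF hens 0 of the 12 had an adjusted p of at most 0.05 and 0 had an unadjusted p under 0.05 in edgeR. The latter count was 0 in DESeq2 and 1 in limma, where 111 and 247 of all 6887 lncRNAs had it. The median log2 fold change of the 12 was -0.17, beside -0.02 over all lncRNAs tested, and this difference was not tested. Several of the 12 are overlapping transcripts of MSTRG.23181 and so are not separate loci. Some had few fragments, such as NONGGAT016527.1, with the largest change at -1.22 and 0 to 2 fragments per hen. MSTRG.23181.9, also among the 12, was listed by the study with its top downregulated lncRNAs in long-DF hens. Here its log2 fold change of long- against short-DF was 0.26 (adjusted p = 0.995 in edgeR), with 0 to 4 fragments per hen. The reason for this difference was not tested.

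The CLDN1 locus was the only place where the annotation put an unknown lncRNA against one of the 38 tight junction genes looked up, 19 of them claudin genes. The list was drawn up with this locus known, so the hit at CLDN1 was fixed in advance. The share of all genes with such a lncRNA was not counted, so the result does not set CLDN1 apart. For the other genes of that list no unknown lncRNA carried the gene as its reference, so no other antisense lncRNA of this family could be set beside it. The genes were looked up by name, so one that the annotation gives under another name or an identifier alone could be missed.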

How the data were processed

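Each library was made by a commercial company from the UVJ RNA of 1 hen with a stranded total RNA kit. Reads were mapped by TopHat to Galgal4 and assembled by StringTie, and the transcripts, classed by Gffcompare, were kept by FPKM, length, exon number and coding potential. The deposited table holds raw counts of fragments per lncRNA, not normalized, and FPKM values, which the authors scaled by transcript length and library total. The counting tool and its use of strand are not given in the sources used here. Transcript lengths and the exon coordinates (the other values used) were taken as deposited by the authors.

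Counts were tested with edgeR 4.0.16 in R 4.3.3 (TMM, quasi-likelihood F test, Benjamini-Hochberg adjustment) over the 6887 of 9977 lncRNAs that reached an FPKM of 0.1 in 7 or more hens, or over loci, in which the counts of overlapping lncRNAs were summed (5262 tested). MSTRG.23167.3 and MSTRG.23167.4 do not pass this filter, so 1 of the 3 members was in the transcript fit. Standard errors were obtained from the log2 fold change and F. Library totals were computed from count, length and FPKM. Permutation tests were two-sided over every split of the hens. The fit was tested on simulated data with far larger changes than those seen at this locus, so that check does not cover small changes. Alternatives were median-ratio scaling, DESeq2 1.42.0, limma 3.58.1 on log2(FPKM + 0.1), library totals, other filters, the prefix as a covariate, subsets of hens and each hen left out. Those for the interaction of group and prefix were chosen after seeing the data. Named lncRNAs besides the members were the 3 most like MSTRG.23167.2 and the 2 nearest on each side. The 3 with the most fragments among those listed for JF64 by the pattern of MSTRG.23167.4 were named too. The next antisense lncRNAs by level, the neighbours compared between the prefixes, MSTRG.24711.3 and NONGGAT007916.2 were named after their values were seen. So were NONGGAT007813.2 and MSTRG.23453.9. MSTRG.23181.9 was named because the study lists it. The members, lists and rules were chosen with earlier results of these data known. Computations outside R used Python 3.11.15, numpy 2.4.6, pandas 2.3.3, scipy 1.17.1 and matplotlib 3.10.9. No sequence is printed, since no genome of this build was used. Raw reads and mRNA were not analysed here.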

Additional observations from a re-analysis of the deposited data

Results flagged for a closer look

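In each group of 7 hens, the gap between the hen at either end and its nearest neighbour was compared with the range of the group, a rule by which chance singles out about 1 group in 20. The rule was applied to MSTRG.23167.2 and to the sum of the locus, and not to MSTRG.23167.3, MSTRG.23167.4 or the shares, where all hens but JF64 hold the same value. In the short-DF hens JF56 stood apart from the others with 365.1 FPKM of MSTRG.23167.2. The sum of the locus in JF56, 366.9 CPM, comes from the same 2600 fragments. Among the long-DF hens JH104 reached 366.9 FPKM of MSTRG.23167.2 without standing apart.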

How the results depend on the processing

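Over 96 alternative fits of the 6 tests, 0 passed an adjusted p of at most 0.05 (the lowest was 0.353, and the lowest unadjusted p was 0.101). The signs of these small log2 values changed in places, and the cause was not tested. For MSTRG.23167.2, long- against short-DF was 0.074 in JH hens alone. With each hen left out in turn it ran from -0.18 to -0.015. JH against JF was 0.043 with limma on log2(FPKM + 0.1), 0.047 with library totals and 0.10 in long-DF hens alone, and from -0.16 to 0.021 with each hen left out. For the sum of the locus, long- against short-DF was -0.057 with limma, -0.043 with library totals and -0.052 in JF hens alone, and from -0.072 to 0.061 with each hen left out. JH against JF for the sum kept its sign in all alternatives, from -0.21 to -0.027. The value nearest to no change, -0.027, was the fit without JF64, the JF hen with all fragments of MSTRG.23167.4. The interaction of group and prefix (the long- against short-DF effect in JH minus that in JF hens) was 0.28 to 0.33 for MSTRG.23167.2 and 0.10 to 0.30 for the sum.

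The number of lncRNAs in 1 hen rose from 15 to 39 at a minimum of 20 fragments, and to 25 with up to 3 fragments allowed elsewhere. With both changes it was 69. The share of MSTRG.23167.4 in JF64 was 22.9% by fragments and 23.5% by FPKM. All 3 members are annotated on the minus strand, so a limit to that strand takes nothing out. No paired analysis was possible because the groups share no hen. For MSTRG.23167.2 counting error was at most 2.47%, beside a CV of 13.1% over the hens. What else adds to that spread was not tested. Everything on MSTRG.23167.3 and MSTRG.23167.4 rests on 1 library.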
